A study of Mus musculus with 8 samples.

Results

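Arginine is the shared substrate of arginases, which release ornithine and urea, and of nitric oxide synthases, which release nitric oxide and citrulline. Ornithine is the starting point of the polyamines putrescine, spermidine and spermine, which dividing cells need and which tumors commonly make in large amounts. Macrophages and other myeloid cells that enter tumors are known for switching between the arginase and the nitric oxide route, and the argininosuccinate enzymes rebuild arginine from citrulline. Described here are 8 genes of these routes, listed by name with earlier results of these data known. They are the arginine transporter Slc7a2, the arginases Arg1 and Arg2, and the inducible nitric oxide synthase Nos2. The others are the argininosuccinate synthase Ass1 and the polyamine genes Odc1, Azin1 and Sat1. All 8 were found among the 24421 genes of the deposited raw count table and among the 19823 genes of the normalized table, and all 8 passed the filter on low counts that left 14468 genes for testing.

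Bulk RNA sequencing was performed on 8 tumors, each from a separate female Kaede mouse injected at 9 weeks of age with 250000 MC38 cells under the skin. MC38 is a mouse colon adenocarcinoma line, so every tumor derives from 1 line, whereas the host cells all carry Kaede, a protein that turns from green to red fluorescence under violet light. On day 10, when tumors were about 5 mm across, 4 tumors received 405-nm light for 3 min (photoconverted tumors 1 to 4) and 4 were not exposed (control tumors 1 to 4), and both groups were collected 5 h later. The comparison between the groups therefore asks whether the light used for labeling was followed within hours by a change in the tumor transcriptome.

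Library totals lay between 16735293 and 35844417 counts in the photoconverted group and between 12576615 and 29439901 in the control group. The 3 shallowest libraries, photoconverted tumor 4, control tumor 2 and control tumor 4, were also those with the largest share of counts on Rn45s, the ribosomal RNA precursor: 21.9%, 35.7% and 23.2%, against 2.70% to 9.65% in the other 5. They are called Rn45s-rich libraries below, and results that rest on them are given with and without them. In a whole tumor, fewer cells of a type and less RNA per cell cannot be told apart. Of the 7 epithelial markers examined for the MC38 label, Cdx2 had no count in any tumor and Epcam, Krt18 and Krt19 did not pass the filter on low counts.

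Levels spanned a wide range when set per kilobase of exon, the scale on which genes can be compared. In control tumors Odc1, the ornithine decarboxylase that starts polyamine synthesis, had a level of 137 ± 51.6 CPM per kb (mean ± SD, n = 4, CPM being counts per 1000000 of the library). Sat1, the acetyltransferase that marks spermidine and spermine for export or breakdown, had a level of 80.1 ± 32.2 CPM per kb. Their ranges overlapped, with Odc1 above Sat1 in 2 of 4 control tumors. Azin1, the inhibitor that frees ornithine decarboxylase from antizyme, followed at 29.1 ± 3.22 CPM per kb and lay below Sat1 in all 4. Ass1 at 16.6 ± 2.31 and Nos2 at 15.9 ± 2.18 CPM per kb could not be ordered, each being the higher in 2 of 4 tumors, and both lay below Azin1. The Ass1 value uses its 1696 exon bases, but its counts could not be told apart from those of the pseudogene Gm5424, as described below. Over the 1240 bases of Gm5424 the level was 22.8 ± 3.17 CPM per kb, so the order of Ass1 and Nos2 depends on the length used. Arg1, the cytosolic arginase, had a level of 12.4 ± 9.60 CPM per kb that overlapped that of Nos2. Arg2, the mitochondrial arginase, and Slc7a2 were far lower, at 0.455 ± 0.283 and 0.331 ± 0.141 CPM per kb, with Arg2 the higher in 3 of 4 tumors. Arg1 was above Arg2 in all 4 control tumors.

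None of the 8 genes passed the test between photoconverted and control tumors, and Arg2 had the largest difference, a log2 fold change of 1.73 that held in 3 of the 4 photoconverted tumors. No gene was called by edgeR's quasi-likelihood test at an adjusted p under 0.05 (0 of 14468 tested, or 0.0%), members included, each of which had an adjusted p of 0.999. At an unadjusted p under 0.05 the same test passed 322 genes, or 2.23% of those tested, and 1 of the 8, Arg2. DESeq2's Wald test called 24 genes, none of them among the 8, and limma on the log2 normalized values called 0, with 262 genes at an unadjusted p under 0.05. All 8 had a higher fitted level in photoconverted tumors, with log2 fold changes from 0.07 to 1.73 and a median of 0.23, whereas the median over all tested genes was -0.01 with 6768 higher and 7700 lower. The 8 were also all higher with DESeq2, limma, another normalization, no filter, Rn45s left out, robust dispersion, the replicate block and the Rn45s share as a covariate. Only 6 of 8 were higher among the 5 tumors that were not Rn45s-rich, and 7 of 8 without photoconverted tumor 4, without control tumor 1 or without control tumor 3. Groups that did not overlap in CPM were seen for 0 of the 8 and for 1.33% of all tested genes.

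**Figure D1:**
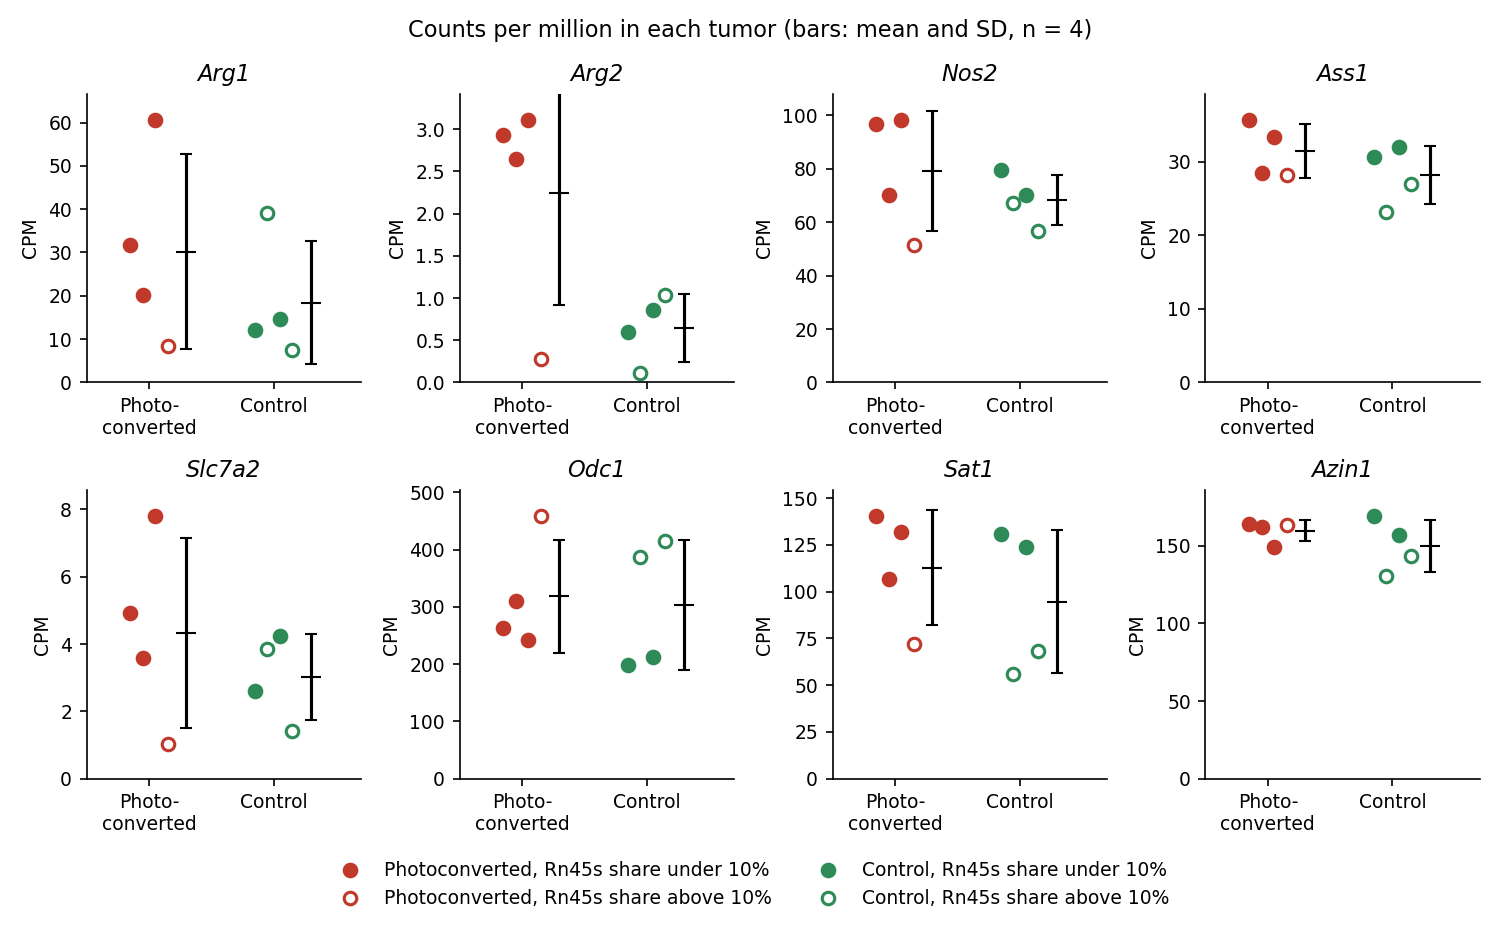
Each panel plots the CPM (linear axis from 0) of 1 gene in the 4 photoconverted tumors (red) and the 4 control tumors (green), with open circles for the 3 libraries with an Rn45s share above 10% and a bar for the mean and SD. The groups overlap in every panel, photoconverted tumor 4 lies apart from the other 3 for Arg2, and the open circles are the highest points for Odc1 and the lowest for Sat1.

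Slc7a2 is a cationic amino acid transporter that brings arginine into activated macrophages (chr8:40862396-40922308 of GRCm38, plus strand). Its level was 4.93, 3.60, 7.80 and 1.03 CPM in photoconverted tumors 1 to 4 and 2.60, 3.85, 4.23 and 1.40 CPM in control tumors 1 to 4. The highest and the lowest value both came from the photoconverted group, and the control values lay between them. The log2 fold change of 0.54 (SE 0.54, edgeR unadjusted p = 0.344) ranged from 0.11, without photoconverted tumor 3, to 0.85, without photoconverted tumor 4, when each tumor was left out in turn, and the exact permutation test over 70 arrangements gave p = 0.686.

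The 2 arginases differed from each other in both level and spread. Arg1 (chr10:24915221-24927484, minus strand) is the isoform associated with alternatively activated macrophages and suppressive myeloid cells. Its level was 31.7, 20.1, 60.6 and 8.41 CPM in photoconverted tumors 1 to 4 and 12.2, 39.2, 14.7 and 7.51 CPM in control tumors 1 to 4. Values spread 8.08-fold across the 8 tumors. Photoconverted tumor 3 and control tumor 2 had the highest values, and the fourth tumor was lowest in each group. The means were 30.2 ± 22.4 and 18.4 ± 14.2 CPM (SD, n = 4). The log2 fold change was 0.74 (SE 0.63), with an unadjusted p = 0.268 by edgeR, and the exact permutation test gave p = 0.429. It came to 0.15 without photoconverted tumor 3 and to 1.39 without control tumor 2, where the unadjusted p was 0.0469 and the adjusted p 1.00.

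Arg2 (chr12:79130777-79156301, plus strand) showed the largest difference of the 8. Its level was 2.93, 2.65, 3.11 and 0.273 CPM in photoconverted tumors 1 to 4 and 0.600, 0.107, 0.853 and 1.04 CPM in control tumors 1 to 4. Photoconverted tumors 1 to 3 therefore lay above every control tumor, whereas photoconverted tumor 4 lay below 3 of the 4 controls. These values rest on 117, 84, 79 and 4 counts and on 21, 1, 24 and 17 counts. For photoconverted tumor 4 the exact 95% Poisson interval, which covers counting error only, was 0.0745 to 0.700 CPM, below the other 3 of its group. Means were 2.24 ± 1.33 and 0.649 ± 0.404 CPM (SD, n = 4), a ratio of 3.45. The log2 fold change was 1.73 (SE 0.67, edgeR unadjusted p = 0.0280, adjusted p = 0.999), between 1.48 and 2.07 with each tumor left out. The unadjusted p then ranged from 0.00132, without photoconverted tumor 4, to 0.0660, and it was above 0.05 without any 1 of photoconverted tumors 1 to 3 or of control tumors 1 and 2. The exact permutation test of its log2 CPM gave p = 0.143, where 0.0286 is the smallest that 4 against 4 allows.

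Photoconverted tumor 4 was also low in the markers of most cell types: in 9 of 10 marker lists, all but that of fibroblasts, its summed level was below that of each other photoconverted tumor. Its library is Rn45s-rich, and the 3 Rn45s-rich libraries, 2 of them controls, all lay below the other 5 for monocyte and neutrophil markers. The sums were 188 to 258 against 290 to 505 CPM for monocyte markers and 38.3 to 47.5 against 52.1 to 144 CPM for neutrophil markers. For the remaining lists the sums of these libraries overlapped those of the other 5. In 2 of the lists, neutrophil and skeletal muscle, photoconverted tumors 1 to 3 also lay above every control, as they did for Arg2. All 8 tested neutrophil markers had higher fitted levels in photoconverted tumors, 7 of them at an unadjusted p under 0.05 and 0 after adjustment, and the ninth listed, Ly6g, was not in the table. Their summed level was 47.5 CPM in photoconverted tumor 4, at least 94.7 CPM in the other 3 of that group and 38.3 to 62.0 CPM among controls. The summed level of 8 skeletal muscle markers, all with higher fitted levels, was 166 CPM in photoconverted tumor 4, at least 408 CPM in the other 3 and 169 to 398 CPM among controls. Endothelial markers had higher fitted levels for 5 of 5, with sums of 87.4 to 167 CPM against 78.4 to 133 CPM. Keratinocyte markers were higher for 2 of 2 tested, with sums of 1.03 to 19.5 CPM against 1.06 to 2.45 CPM. Adipocyte markers were higher for 4 of 4 tested, with sums of 10.2 to 37.2 CPM against 10.3 to 21.1 CPM. Of the tested monocyte markers 3 of 5 were higher, of fibroblast markers 3 of 6, of T cell markers 1 of 5 and of epithelial markers 2 of 3. Macrophage markers, which accompany arginase in many tumors, were higher for 4 of 10, with sums of 571 to 1244 CPM against 439 to 1074 CPM. The part of these cells in the Arg2 difference was not tested.

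Nos2 (chr11:78920787-78960254, plus strand) encodes the inducible nitric oxide synthase of stimulated myeloid cells. Its level was 96.8, 70.1, 98.3 and 51.5 CPM in photoconverted tumors 1 to 4 and 79.4, 67.1, 70.1 and 56.6 CPM in control tumors 1 to 4. Photoconverted tumors 1 and 3 were above all controls and photoconverted tumor 4 was below them all, so the photoconverted SD of 22.6 CPM exceeded the control SD of 9.37 CPM around means of 79.2 and 68.3 CPM. Nos2 had a log2 fold change of 0.21 (SE 0.21, edgeR unadjusted p = 0.336), and the exact permutation test gave p = 0.543. It ranged from 0.093 without photoconverted tumor 3 to 0.37 without photoconverted tumor 4, where the edgeR unadjusted p was 0.0557.

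Ass1 (chr2:31470207-31520672, plus strand) joins citrulline to aspartate in the recycling of arginine. Its level was 35.7, 28.5, 33.3 and 28.2 CPM in photoconverted tumors 1 to 4 and 30.6, 23.2, 32.0 and 27.0 CPM in control tumors 1 to 4. Each photoconverted tumor lay above the control tumor of the same number, by 0.06 to 0.30 on the log2 CPM scale, but the groups overlapped and the labels state no pairing by number. The log2 fold change was 0.15 (SE 0.14, edgeR unadjusted p = 0.308), or 0.073 without control tumor 2 and 0.087 without photoconverted tumor 1, and with 4 pairs an exact sign-flip test cannot go below the p = 0.125 that it gave. Counts for Ass1 equaled those for Gm5424, a processed pseudogene at chr10:62071123-62072362 (plus strand), in 7 of 8 libraries and differed by 1 in the other. The values given for Ass1 can therefore not be told apart from those of the copy.

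To show how alike the copies are, the Ass1 transcript was aligned to that of Gm5424 (both from GENCODE M21). The pseudogene matched bases 203 to 1442 of the 1696-base transcript, with 1234 of 1240 bases identical (99.5%), 6 mismatches and no gap. A stretch of 61 bases around 1 of the mismatches, bases 828 to 888 of Ass1 and 626 to 686 of Gm5424, is printed with the differing base in capitals (G858C, counted from the first base of the Ass1 transcript, with the base of Ass1 first):
Ass1: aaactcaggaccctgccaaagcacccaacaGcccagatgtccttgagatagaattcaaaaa
Gm5424: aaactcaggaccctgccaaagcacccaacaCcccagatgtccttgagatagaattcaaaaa

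Odc1 (chr12:17544794-17551505, plus strand) was the most highly counted of the 8. Its level was 262, 310, 242 and 459 CPM in photoconverted tumors 1 to 4 and 198, 387, 212 and 415 CPM in control tumors 1 to 4. The 3 highest values were those of the Rn45s-rich libraries, 1 from the photoconverted and 2 from the control group. Means of 318 ± 97.9 and 303 ± 114 CPM (SD, n = 4) gave a log2 fold change of 0.07 (SE 0.30, edgeR unadjusted p = 0.819). Leaving out single tumors moved it between -0.16, without photoconverted tumor 4, and 0.26, and it was also below 0 without control tumor 1 (-0.09) and without control tumor 3 (-0.07).

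Azin1 (chr15:38487427-38519266, minus strand) was the steadiest of the 8. Its level was 164, 162, 149 and 163 CPM in photoconverted tumors 1 to 4 and 169, 131, 157 and 143 CPM in control tumors 1 to 4. The highest value was 1.29 times the lowest, against 2.31 for Odc1 and 29.1 for Arg2. Both the highest and the lowest tumor were controls, and the log2 fold change was 0.09 (SE 0.11, edgeR unadjusted p = 0.442), between 0.030 without control tumor 2 and 0.15 without control tumor 1.

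Sat1 (chrX:155213132-155216449, minus strand) stands at the other end of the polyamine route. Its level was 140.4, 107, 132 and 71.8 CPM in photoconverted tumors 1 to 4 and 131, 56.0, 124 and 68.2 CPM in control tumors 1 to 4. The 3 lowest values were those of the Rn45s-rich libraries, the reverse of Odc1. Every photoconverted tumor was above its same-numbered control, by 0.93 on the log2 CPM scale for tumors 2 and by 0.07 to 0.10 for the other pairs, and the exact sign-flip test gave its smallest possible p = 0.125. Over all 8 tumors its log2 fold change was 0.25 (SE 0.31, edgeR unadjusted p = 0.440). Leaving out single tumors moved it between 0.065, without control tumor 2, and 0.44, without control tumor 1.

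**Figure D2:**
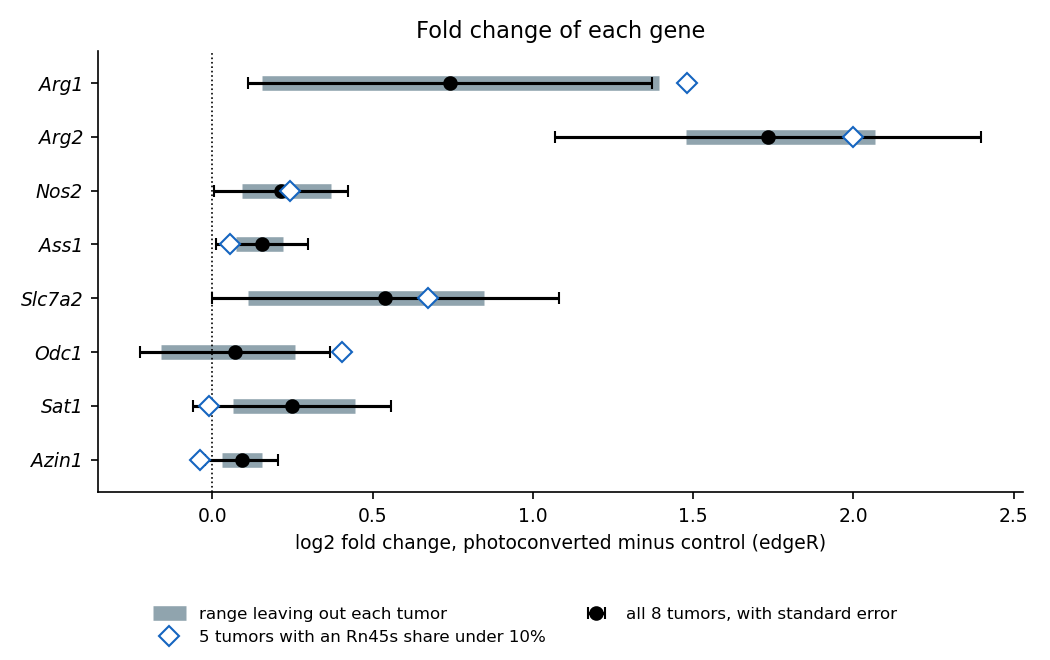
Black points give the log2 fold change of each gene, photoconverted minus control, with its standard error over all 8 tumors, grey bars the range when each tumor is left out, and blue diamonds the value from the 5 libraries that are not Rn45s-rich. Arg2 lies farthest from 0, at 1.73, and Odc1 is the gene whose grey bar crosses 0, whereas for Sat1 and Azin1 the diamond lies just below 0.

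Odc1 and Sat1 ran most oppositely of any pair of the 8 across all 8 tumors, including the Rn45s-rich libraries. Their promoters are shown for that reason. RefSeq windows on GRCm38.p6 of 250 bases before to 50 bases after the start were at hand for 3 of the 8 genes, Odc1, Sat1 and Ass1. The GC box, a motif bound by the Sp1 family, was searched as GGGCGG on both strands and is in capitals. Odc1 is given from chr12:17544623-17544922 (plus strand) and Sat1 from chrX:155216400-155216699 (minus strand), each 5′ to 3′ along the gene:
Odc1: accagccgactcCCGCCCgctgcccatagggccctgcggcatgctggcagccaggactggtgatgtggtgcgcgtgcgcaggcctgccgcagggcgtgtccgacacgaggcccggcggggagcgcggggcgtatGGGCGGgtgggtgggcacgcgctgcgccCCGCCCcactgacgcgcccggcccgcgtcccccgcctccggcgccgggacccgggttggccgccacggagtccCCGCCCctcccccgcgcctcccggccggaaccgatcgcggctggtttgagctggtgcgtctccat
Sat1: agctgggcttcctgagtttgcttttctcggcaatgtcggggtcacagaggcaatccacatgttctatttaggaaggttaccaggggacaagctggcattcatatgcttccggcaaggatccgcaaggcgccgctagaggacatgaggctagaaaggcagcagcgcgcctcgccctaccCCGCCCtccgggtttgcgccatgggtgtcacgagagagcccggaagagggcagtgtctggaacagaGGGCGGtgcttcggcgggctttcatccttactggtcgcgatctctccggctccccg
The Odc1 window held 4 GC boxes, the Sat1 window 2 and the Ass1 window 1. Among all 32851 promoter windows 35.7% held at least 1, 19.5% at least 2 and 5.49% at least 4. G and C made up 78.0% of the Odc1 window and 60.3% of the Sat1 window.

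The Rn45s-rich libraries separated 4 of the 8 genes. Odc1 ranged from 387 to 459 CPM in these 3 libraries and from 198 to 310 CPM in the other 5. Sat1 ranged from 56.0 to 71.8 against 107 to 140.4 CPM, Nos2 from 51.5 to 67.1 against 70.1 to 98.3 CPM, and Ass1 from 23.2 to 28.2 against 28.5 to 35.7 CPM, all lower in the Rn45s-rich libraries. Mean Odc1 was 1.72 times as high in these libraries, and mean Sat1 was 1.94 times as high in the other 5. Of all tested genes 44.4% did not overlap between the same libraries, so that a share of 4 in 8 lay near the background. Depth, Rn45s share and these levels differed together, and their part in the levels was not tested.

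**Figure D3:**
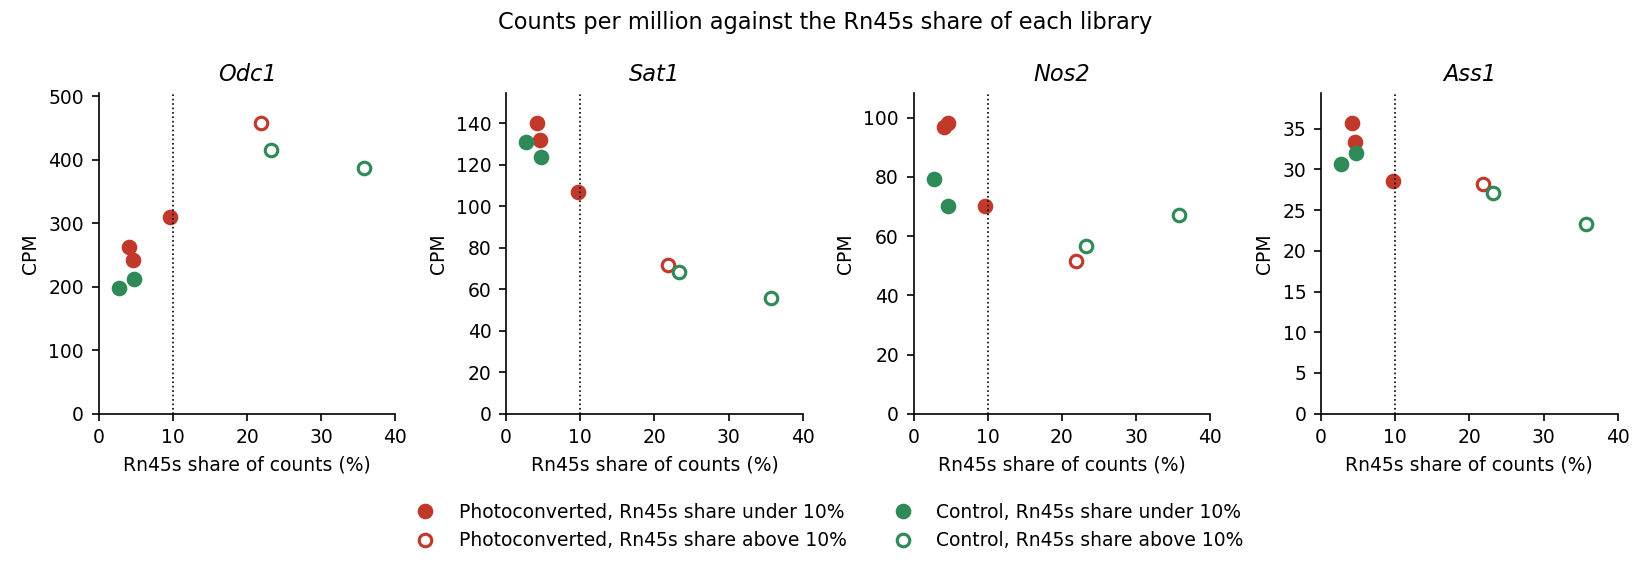
The CPM of Odc1, Sat1, Nos2 and Ass1 (linear axes from 0) is plotted against the percent of counts on Rn45s in each of the 8 libraries, with the dotted line at 10%. Points right of the line, 1 photoconverted and 2 control tumors, are the highest for Odc1 and the lowest for the other genes, and photoconverted tumor 2, at 9.65%, lies next to the line.

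Within the other 5 libraries, photoconverted tumors 1 to 3 and control tumors 1 and 3, more genes passed the test. edgeR called 42 of 15252 genes, or 0.275%, with 37 higher and 5 lower, and none was among the 8. Arg2 came nearest, with a log2 fold change of 2.00 (SE 0.29, edgeR unadjusted p = 0.000178, adjusted p = 0.0580). Arg1 had a log2 fold change of 1.48 (SE 0.42, edgeR unadjusted p = 0.00853, adjusted p = 0.302) and Odc1 one of 0.40 (SE 0.13, unadjusted p = 0.0150, adjusted p = 0.361). In these 3 genes the CPM of every photoconverted tumor exceeded that of both controls, which 14.0% of all tested genes also showed. Sat1 (-0.012) and Azin1 (-0.039) had log2 fold changes just below 0 in this fit, and those of Slc7a2, Nos2 and Ass1 were 0.67, 0.24 and 0.055.

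Ratios of counts within a library do not depend on how libraries are scaled. They compare transcript counts, not enzyme activity, and are not set per kilobase of exon. Arg1 over Nos2 came to 0.328, 0.287, 0.617 and 0.163 in the photoconverted group (tumors 1 to 4) and to 0.153, 0.584, 0.209 and 0.133 in the controls. Per kilobase, Arg1 lay above Nos2 in photoconverted tumor 3 (41.1 against 22.9 CPM per kb) and control tumor 2 (26.5 against 15.6 CPM per kb), and below it in every other tumor. Photoconverted tumor 3 and control tumor 2 had the highest ratios, and the difference in mean log2 ratio of 0.48 gave p = 0.429 by exact permutation test. It was 0.16 without photoconverted tumor 3, 0.23 without control tumor 4, 0.30 without control tumor 1, 0.79 without photoconverted tumor 4, 0.95 without control tumor 2 and 1.11 in the 5 libraries that are not Rn45s-rich. Arg1 over Arg2 came to 10.8, 7.58, 19.5 and 30.8 in the photoconverted group and to 20.3, 366, 17.2 and 7.24 in the controls. The value of 366 divides by 1 count, with an exact 95% counting interval of 65.3 to 14495, and the difference of -1.06 (exact permutation p = 0.629) became 0.13 without that tumor and -0.68 in those 5 libraries.

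Odc1 was weighed against its regulator and against the catabolic enzyme in the same way. Odc1 over Azin1 came to 1.60, 1.91, 1.62 and 2.81 in the photoconverted group and to 1.17, 2.96, 1.35 and 2.90 in the controls. Odc1 over Sat1 came to 1.87, 2.91, 1.83 and 6.39 in the photoconverted group and to 1.51, 6.92, 1.71 and 6.08 in the controls. Both ratios were higher in each of the 3 Rn45s-rich libraries than in any of the other 5. Between the groups the differences in mean log2 ratio were 0.01 and -0.20 (exact permutation p = 1.00 and p = 0.943), and after adjustment over the 4 ratios every p was 1.00. In the 5 libraries that are not Rn45s-rich the differences were 0.44 for Odc1 over Azin1 and 0.42 for Odc1 over Sat1.

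**Figure D4:**
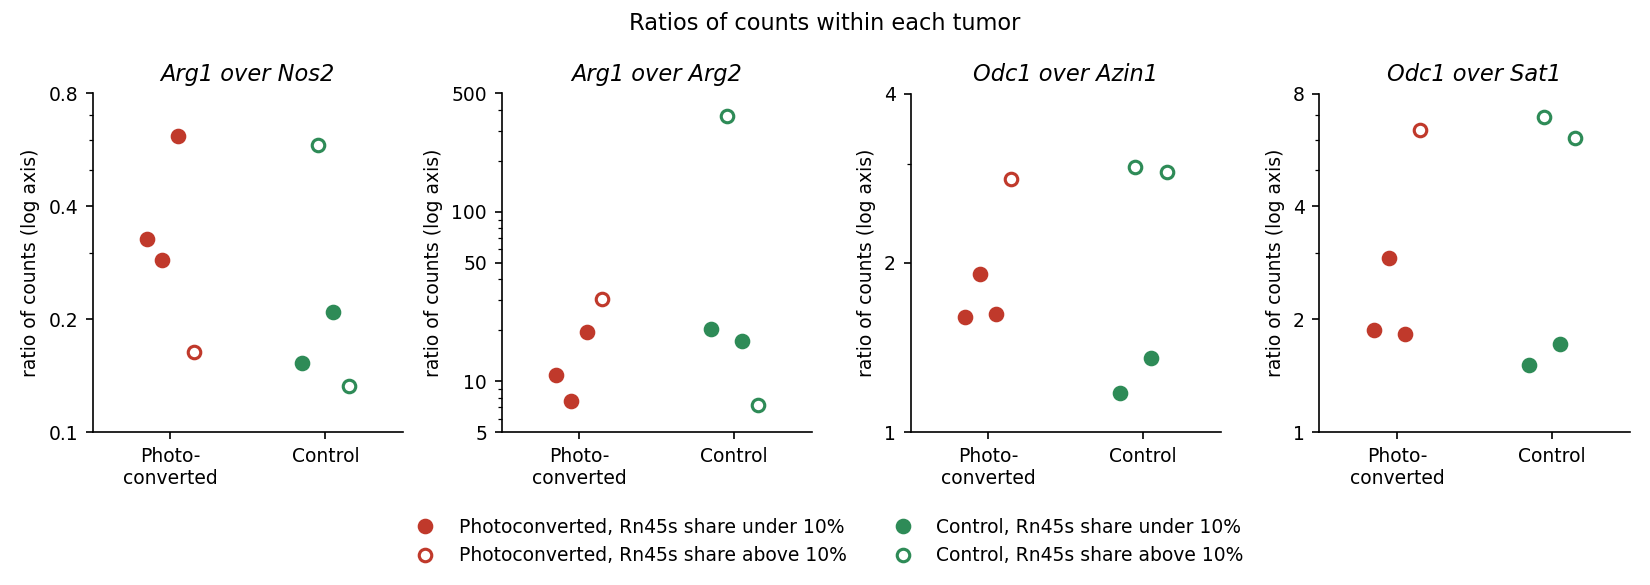
Ratios of raw counts in each tumor are shown on log axes for Arg1 over Nos2, Arg1 over Arg2, Odc1 over Azin1 and Odc1 over Sat1, with open circles for libraries with an Rn45s share above 10%. Both groups overlap for each ratio, control tumor 2 stands far above the rest at 366 for Arg1 over Arg2, and the open circles are the highest points of both Odc1 ratios.

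The genes around the 8 were examined in 8 lists by role, of which 48 of 49 were in the table and 43 passed the filter. They were evenly split, with 21 higher and 22 lower in photoconverted tumors, a median log2 fold change of -0.00 and a range from -0.68 to 0.40. None had an adjusted p under 0.05 by edgeR, and 1, Gch1, had an unadjusted p under 0.05. That is 2.33% of the 43, near the 2.23% of all tested genes, and the 1 gene whose groups did not overlap, again Gch1, compares with 1.33% of all tested genes. Gch1 encodes GTP cyclohydrolase, the first enzyme in making the tetrahydrobiopterin that nitric oxide synthases need. Its level was 15.2, 12.9, 17.5 and 13.7 CPM in photoconverted tumors 1 to 4 and 11.2, 10.5, 10.3 and 12.9 CPM in control tumors 1 to 4. The photoconverted tumors all lay above the controls, photoconverted tumor 2 and control tumor 4 by the narrowest margin. The log2 fold change of Gch1 was 0.40 (SE 0.15, edgeR unadjusted p = 0.0257, adjusted p = 0.999), and the exact permutation test gave p = 0.0286, the smallest it can give. The unadjusted edgeR p was above 0.05 without photoconverted tumor 1 (0.0607), photoconverted tumor 3 (0.0848) or control tumor 3 (0.0676). In the 5 libraries that are not Rn45s-rich the log2 fold change of Gch1 was 0.50 (edgeR unadjusted p = 0.0155, adjusted p = 0.363).

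Among arginine and ornithine transporters 6 of 7 had higher fitted levels, with a median of 0.03. Slc7a1, the widely used arginine importer, had the most counts of them (298 and 287 CPM in photoconverted and control tumors, log2 fold change 0.06, SE 0.23), and the mitochondrial carrier Slc25a29 the smallest p (log2 fold change 0.30, SE 0.25, edgeR unadjusted p = 0.270). Of 4 genes of citrulline recycling and the urea cycle 1 was tested, the argininosuccinate lyase Asl (38.9 and 38.0 CPM, log2 fold change 0.03), and Otc had no count in any tumor. Nitric oxide synthases with the genes for their cofactor and for clearing their inhibitor were 4 higher and 4 lower, with the most counts for Spr, the last enzyme in making the cofactor (52.3 and 68.5 CPM, log2 fold change -0.39, SE 0.41). Genes leading ornithine to proline and arginine to creatine or agmatine were 1 higher and 6 lower. Examples are Aldh18a1, which makes the proline precursor (116 and 128 CPM, log2 fold change -0.13, SE 0.18), and the ornithine aminotransferase Oat (82.3 and 89.7 CPM, log2 fold change -0.12, SE 0.11).

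Polyamine synthesis and methionine salvage genes were 5 higher and 2 lower, with a median of 0.10. The salvage enzyme Mtap had a log2 fold change of 0.26 (SE 0.24, 249 and 208 CPM) and the spermine synthase Sms one of 0.21 (SE 0.19, 45.1 and 38.8 CPM). In this list Amd1 and Amd2 had equal counts in 6 of 8 libraries and differed by at most 1, so they cannot be told apart. Both are nevertheless counted as higher genes, in this list and in the totals over all lists. The 3 tested genes among antizymes and antizyme inhibitors all had lower fitted levels, with Oaz1, the antizyme that sends ornithine decarboxylase to the proteasome, at 279 and 326 CPM (log2 fold change -0.22, SE 0.29) and the antizyme inhibitor Azin2 at 3.02 and 4.07 CPM (log2 fold change -0.42, SE 0.31). Polyamine breakdown and transport genes were 2 higher and 4 lower, among them the transport ATPases Atp13a3 (log2 fold change 0.08, SE 0.11) and Atp13a2 (log2 fold change -0.31, SE 0.23). The 4 genes that attach the spermidine-derived hypusine to eIF5A or encode that factor were 2 higher and 2 lower, with log2 fold changes of -0.08 for Eif5a (SE 0.26) and -0.25 for the hydroxylase Dohh (SE 0.46).

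**Figure D5:**
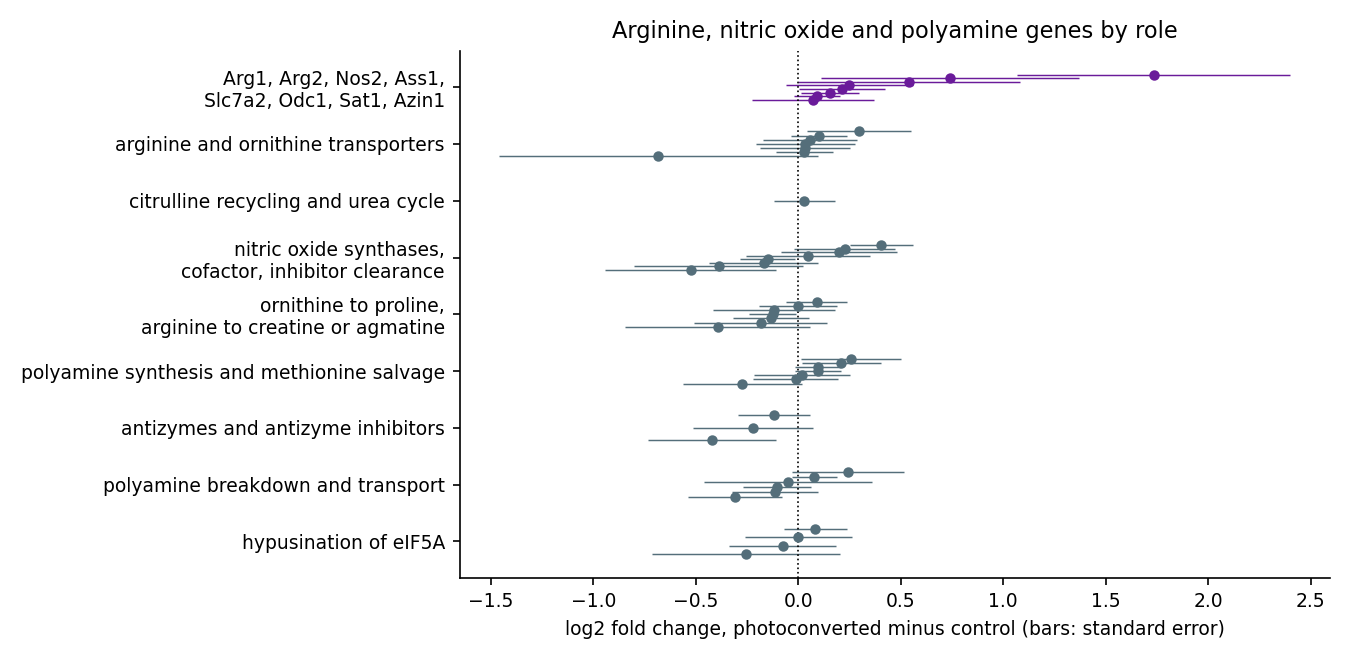
Each point is the log2 fold change of 1 tested gene, photoconverted minus control, with its standard error, grouped by role, and the 8 genes described here are in purple. The 8 lie above 0, from 0.07 to 1.73, whereas the 43 other genes lie on both sides of 0, from -0.68 to 0.40.

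Across the 8 tumors the members fell into differing patterns, described here with Pearson's r of log2 CPM over tumors that share the depth and Rn45s differences above. Slc7a2 followed Arg1 (r = 0.89) and Nos2 (r = 0.88), Sat1 followed Ass1 (r = 0.92), and Odc1 ran opposite to Sat1 (r = -0.88). Arg1 and Arg2 had an r of 0.31. The genes most like Arg1 among all tested were Avpr1a (r = 0.988), Fmod (0.987) and Irs2 (0.979), and those most like Arg2 were 9330188P03Rik (0.954), Trim12a (0.950) and Nrg1 (0.949). Odc1 was matched by Zfp622 (0.996), Nubp2 (0.995) and Nol9 (0.994), and Sat1 by Picalm (0.997), Sh3glb1 (0.996) and Cap1 (0.996). For Slc7a2 the closest were Ano6 (0.989), Fam46c (0.979) and Adcy4 (0.976), and for Nos2 they were 1700001L05Rik (0.992), Pilrb1 (0.975) and Rmdn2 (0.972). Ass1 was matched by its copy Gm5424 (1.00), Cript (0.990) and Zwilch (0.976), and Azin1 by B230354K17Rik (0.990), Ccnh (0.976) and Dync2li1 (0.972).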

How the data were processed

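Bulk tumor RNA was sequenced from 8 tumors, with a SMARTER stranded total RNA kit per the labels, whereas the methods name a TruSeq stranded kit. The submitters' processing notes name CASAVA, FastQC, Trim Galore, HISAT2, featureCounts, DESeq2 and mm10, and the annotation and strand setting are not given in the sources used here. A raw count for each gene symbol and tumor was deposited by the authors, beside a deposited table of normalized signal values, which equaled the counts divided by a size factor per library.

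Counts were tested with edgeR 4.0.16 in R 4.3.3 (TMM, filterByExpr, glmQLFTest, Benjamini-Hochberg, threshold 0.05) over all 8 tumors by group. CPM used TMM library sizes, and log2 CPM a prior count of 2. Single genes and ratios were tested by two-sided exact permutation over 70 arrangements. Gene spans and exon lengths came from GENCODE M21. edgeR, with and without the replicate block, DESeq2 and limma were run on simulated counts, in which Rn45s-rich libraries were not modeled. No group held libraries alike within sampling noise. The p-values measure the spread between these mice and that between their libraries together. These cannot be separated, because no tumor had a repeat library, and the libraries also differed in depth and Rn45s share.

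The 8 genes, the lists and the tests were chosen with earlier results of these data known. Named beside them were, of each pathway list, the gene with the most CPM, the gene with the smallest p and any with an unadjusted p under 0.05, and the 3 genes most correlated with each member. Ly6g and Epcam, Krt18, Krt19 and Cdx2 are named as absent or low markers, and Krt8, Cdh1 and Vil1 as the epithelial markers that passed the filter.

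Alternatives were DESeq2 1.42.0, limma 3.58.1 on log2(normalized + 1), RLE, no filter, Rn45s left out, robust dispersion, the log2 Rn45s share as covariate, the 5 other tumors, each tumor left out, and the replicate number as a block. Replicate numbers come from the labels, which state no pairing. Deviations of same-numbered tumors correlated with r from 0.11 to 0.62, all 4 above 0.1. The mean r was 0.43 for tumors of the same number and -0.13 for tumors of different numbers. Of 8 tumors, 5 correlated best with the tumor of their own number. A pairing by number is neither stated nor settled, and the block and sign-flip results are given as alternatives only.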

Additional observations from a re-analysis of the deposited data

Results flagged for a closer look

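Of 24 groups of 4 tumors examined, 4 held a tumor farther from the others than Dixon's 95% limit, where chance would give about 1.20. Arg2 was 0.273 CPM in photoconverted tumor 4, whose library is Rn45s-rich, and 2.65 CPM in the nearest other tumor of its group. Azin1 was 149 CPM in photoconverted tumor 3 and 162 CPM in the nearest other, a gap that is wide only against the close spread of the remaining tumors. In control tumor 2, also Rn45s-rich, the Arg1 over Nos2 ratio was 0.584, against 0.209 in the next control. In the same tumor the Arg1 over Arg2 ratio was 366, resting on 1 Arg2 count, against 20.3 in the next.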

How the results depend on the processing

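Of 264 recomputed values for 24 results, 247 kept their direction and their side of the threshold or stayed within 1.5 times the count. These include the replicate block of the exact tests and ratios, which could not change. Its mean pair difference equals the difference in group means, and its sign-flip test cannot pass the threshold. The number of genes called was 0 with edgeR, 24 with DESeq2 and 42 in the 5 tumors that were not Rn45s-rich, and 0 to 11 with each tumor left out, 11 being without photoconverted tumor 4. None of the 8 genes and none of the other pathway genes was called in any of these fits, nor with the replicate number as a block, which called 0 genes (869 at an unadjusted p under 0.05) and changed no call. Log2 fold changes crossed 0 for Odc1 with tumors left out (-0.16 to 0.26) and for Sat1 (-0.012) and Azin1 (-0.039) in the 5 tumors. Differences in log2 ratio with tumors left out ranged from 0.16 to 0.95 for Arg1 over Nos2, from -1.76 to 0.13 for Arg1 over Arg2, from -0.23 to 0.22 for Odc1 over Azin1 and from -0.59 to 0.17 for Odc1 over Sat1, which was 0.42 in the 5 tumors. The cause was not tested. The 1 to 117 counts behind Arg2 and the 15 to 198 behind Slc7a2 limit their precision.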
